A study of Mus musculus with 6 samples.

Results

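The transcripts described here are 8 long noncoding RNAs of imprinted domains: Kcnq1ot1, Meg3, Rian, Mirg, Airn, Peg13, Nespas and H19. They were chosen by name, with earlier results of these data known, and all 8 had a row among the 24421 genes of the deposited count tables. RNA was sequenced from the Purkinje neuron layer dissected together with the molecular layer of the mouse cerebellum. The 3 wild type (WT) and 3 STIM1 knockout (KO) libraries came from mice aged 1 year, and the series text calls the 3 of each genotype biological replicates. STIM1 is the calcium sensor of the endoplasmic reticulum. The labels give no strain, no sex, no deleted exons, no Cre line and no agent for either genotype, and the comparison of KO with WT asks what differs in this tissue.

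Imprinted genes are expressed from the allele of one parent, and many lie in clusters that hold a long noncoding RNA. Kcnq1ot1 and Airn start inside a protein-coding gene, run against it on the other strand from the paternal allele, and are known for silencing genes of their cluster in cis. Meg3, Rian and Mirg are expressed from the maternal allele of the Dlk1-Dio3 domain, where they carry microRNAs and small nucleolar RNAs, and Meg3 is abundant in brain. Peg13 lies within Trappc9 and is expressed in brain, Nespas runs against the Nesp transcript of the Gnas locus, and H19 is a maternal transcript that falls silent in most tissues after birth.

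In GENCODE M21 on GRCm38, 3 of the 8 lie opposite a protein-coding gene and 5 do not. Kcnq1ot1 (chromosome 7, 143203458 to 143296549, minus strand) is 1 exon of 93092 bases opposite Kcnq1, and Nespas (chromosome 2, 174281237 to 174295436, minus strand) has 5 exons opposite Gnas. Airn (chromosome 17, 12741311 to 12860136, plus strand) has 8 exons opposite Igf2r and Mas1. Peg13 (chromosome 15, 72805600 to 72810324, minus strand) lies in an intron of Trappc9 on the same strand, so it was placed with Meg3 (chromosome 12, 109541001 to 109571726, plus strand), Rian (109603940 to 109661716), Mirg (109729764 to 109749460) and H19 (chromosome 7, 142575529 to 142578143, minus strand). Rian and Mirg follow Meg3 on the plus strand of chromosome 12.

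The start regions are shown for the most counted RNA of each class and for Airn, a further RNA opposite a coding gene with a matched window, since the comparison of the classes turns on Kcnq1ot1 and Meg3. Each is the RefSeq window of GRCm38.p6 from 250 bases before to 50 after the start, 5′ to 3′ on the strand of the RNA. They are chr7:143296498-143296797 (minus strand) for Kcnq1ot1, chr12:109540746-109541045 (plus) for Meg3 and chr17:12741061-12741360 (plus) for Airn. Capitals mark matches on either strand to CCAAT (the NF-Y box), TGCCGC (a hexamer bound by ZFP57, which maintains imprints) or TATAAA (the TATA box).
Kcnq1ot1: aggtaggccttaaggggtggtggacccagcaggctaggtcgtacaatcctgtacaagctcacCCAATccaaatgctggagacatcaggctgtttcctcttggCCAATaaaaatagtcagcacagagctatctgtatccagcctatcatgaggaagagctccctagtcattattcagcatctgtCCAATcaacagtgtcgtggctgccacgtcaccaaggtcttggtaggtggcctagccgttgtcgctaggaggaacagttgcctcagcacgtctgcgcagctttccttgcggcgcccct
Meg3: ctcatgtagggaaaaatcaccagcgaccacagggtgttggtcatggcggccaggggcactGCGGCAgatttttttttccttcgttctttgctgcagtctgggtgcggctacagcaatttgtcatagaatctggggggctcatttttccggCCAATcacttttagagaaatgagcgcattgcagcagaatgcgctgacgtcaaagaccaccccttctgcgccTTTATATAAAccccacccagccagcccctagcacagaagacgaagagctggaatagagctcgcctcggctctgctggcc
Airn: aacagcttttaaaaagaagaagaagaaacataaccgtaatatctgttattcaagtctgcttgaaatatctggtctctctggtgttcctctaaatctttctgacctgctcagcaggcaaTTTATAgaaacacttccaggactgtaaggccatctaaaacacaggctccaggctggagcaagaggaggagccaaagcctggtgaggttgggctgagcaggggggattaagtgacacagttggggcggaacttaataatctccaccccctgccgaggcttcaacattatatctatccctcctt
The Kcnq1ot1 window held 3 CCAAT matches, and 3.37% of the 32851 RefSeq windows of this length held as many or more. The Meg3 window held 1 CCAAT match, 1 TGCCGC match and 2 overlapping TATAAA matches, 1 on each strand, and the Airn window held 1 TATAAA match. Of all windows, 37.4% held CCAAT, 11.6% TGCCGC and 13.6% TATAAA. The windows had 9, 13 and 3 CG dinucleotides for Kcnq1ot1, Meg3 and Airn, against a median of 7 over all windows. Windows were matched for 5 of the 8 RNAs, and a match is a description of letters, not of a bound site.

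Kcnq1ot1 and Kcnq1 share 121 bases of exon, the only stretch where their exons lie opposite each other. The stretch is a coding exon of Kcnq1 at chr7:143261256-143261376. It is printed from the GENCODE transcript on the minus strand, 5′ to 3′ along Kcnq1ot1, with the shared bases in capitals and 20 bases on each side in lower case.
Shared stretch: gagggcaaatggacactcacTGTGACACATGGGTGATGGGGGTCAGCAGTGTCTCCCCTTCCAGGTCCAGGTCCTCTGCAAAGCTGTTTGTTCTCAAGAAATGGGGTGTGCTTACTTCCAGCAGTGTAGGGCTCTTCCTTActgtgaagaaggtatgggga
Nespas shares 988 exon bases with Gnas, and Airn shares 0 with Igf2r. Meg3 shares 1228 exon bases with Gm26906, a noncoding gene on the other strand that had no row in the count tables.

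**Figure D1:**
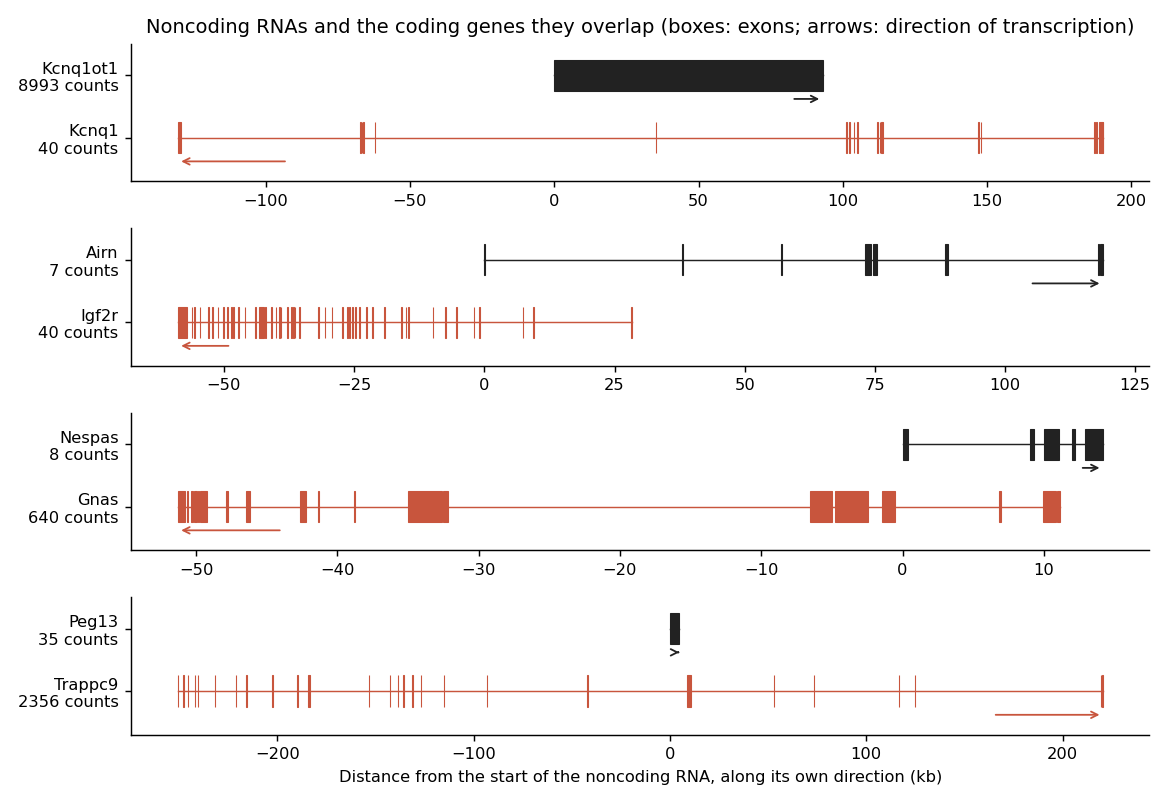
Maps of 4 loci where a noncoding RNA overlaps a coding gene, drawn along distance in kilobases, with exons as boxes, arrows for the direction of transcription and the count summed over the 6 libraries beside each gene. Kcnq1ot1 had 8993 counts against 40 for Kcnq1, while Airn, Nespas and Peg13 had 7, 8 and 35 counts against 40, 640 and 2356 for Igf2r, Gnas and Trappc9.

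The libraries held 645994 to 764839 gene counts, which were 1.16% to 1.23% of the uniquely aligned reads, and 5320 genes were deep enough to test. Stim1 was at 7, 21 and 3 counts in the WT libraries against 4, 3 and 2 (exact two-sided permutation p = 0.3, where 0.1 is the smallest possible), so the genotype was only weakly checked. Of 13 Purkinje cell markers, 10 had a mean count of at least 10, and their summed level, as counts scaled to library size (CPM), was 2853 to 3466 in WT and 2130 to 2783 in KO. The 8 Bergmann glia and astrocyte markers summed to between 945 and 1090 CPM in WT against 563 to 934 in KO. Granule cell markers summed to 616 to 711 CPM in WT against 589 to 737 in KO. The erythrocyte markers Hbb-bs and Hba-a1 and the choroid plexus marker Folr1 had 0 counts, and all microglial markers had a mean count below 10. The erythrocyte marker Alas2, however, had 7, 2 and 11 counts in WT against 16, 10 and 5 in KO. Prlr, the 1 choroid plexus marker with a mean count of at least 10, had 15, 9 and 12 against 27, 5 and 12. The Purkinje cell sum and the Bergmann glia and astrocyte sum did not overlap between the genotypes, while the granule cell sum did. The groups of 10.7% of single tested genes likewise did not overlap. Itpr1, the most counted Purkinje cell marker, had 1217, 1273 and 1029 counts in WT against 889, 886 and 822 in KO. It was the largest part of the Purkinje cell sum in every library, so the gap in that sum leaned on Itpr1. Pvalb also had fewer counts in every KO library, but Pcp2, Calb1 and Car8 overlapped. Pcp2 had 60, 59 and 47 counts in WT against 71, 60 and 70 in KO. The part of these sums in the KO and WT values below was not tested. In bulk tissue, fewer cells of a type and less RNA per cell cannot be told apart.

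The sources used here do not say which strand was counted. Tsix counts were 3053, 2987 and 2 in the WT libraries, with 3265, 3019 and 1 in the KO libraries, so replicate 3 of each genotype stood apart. Xist, the RNA opposite Tsix that coats the inactive X, had 139, 79 and 10 counts in WT with 100, 108 and 4 in KO. Its lowest count in each genotype was likewise in replicate 3. Peg3os had 11930 counts in all and Peg3, the abundant imprinted brain gene opposite it, had 197. At Ube3a the coding gene had 3431 counts and its antisense RNA Snhg14 had 5, and which strand these reads came from was not tested. In the Tsix and Peg3os pairs most of the summed counts stood under the antisense gene, so a count listed under any name here, those of the 8 RNAs included, may hold reads of RNA from the other strand. Whether it does was not tested for the 8 RNAs.

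Kcnq1ot1 was the most counted of the 8, with 78.2% of their summed counts, and ranked 58 among all genes by mean count. The WT libraries held 2281, 941 and 1371 of its reads, and the KO libraries 2073, 845 and 1482. In CPM these were 3418, 1423 and 1931 for WT, with 2633, 1259 and 2346 for KO. The genotypes overlapped, and replicate 1 was the highest and replicate 2 the lowest in each. WT averaged 2257 ± 1037 CPM and KO averaged 2079 ± 725 CPM (SD, n = 3 per genotype). The log2 fold change of KO over WT was -0.12 (SE 0.26, 95% confidence interval -0.67 to 0.43, adjusted p = 0.997, edgeR), which is 0.921-fold with an interval of 0.630 to 1.35. Without WT replicate 1 the log2 fold change was 0.30 and without KO replicate 2 it was 0.14, so its direction rested on single libraries. Without replicate 3 of both genotypes, the libraries that stood apart in Tsix, it was -0.32 (SE 0.37).

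The spread of Kcnq1ot1 within a genotype was larger than that of most genes with a mean count of at least 50, a set that includes many genes less counted than Kcnq1ot1. The highest library was 2.40 times the lowest in WT and 2.09 times in KO. Its within-genotype SD was 0.61 on the log2 CPM scale, rank 17 of these 1697 genes, whose median was 0.19. The order of replicates 1, 3 and 2 from high to low held in both genotypes for Kcnq1ot1 and for 225 of the 5320 tested genes (4.23%). Libraries of the same number in WT and KO also had the lowest chi-square per degree of freedom of all pairs, 2.03 to 2.46 against 2.59 to 3.83 for the others. The part of replicate structure in the spread was not tested.

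**Figure D2:**
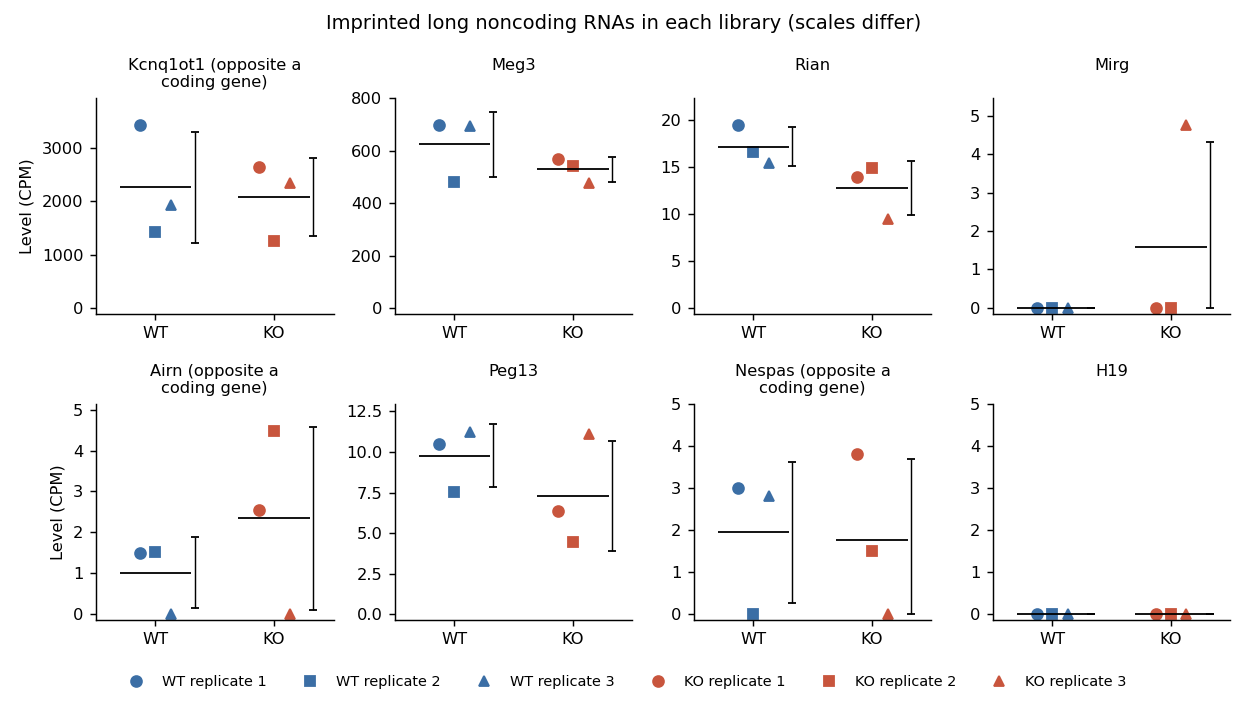
CPM of the 8 RNAs in each of the 6 libraries, as points on one panel per RNA with its own axis, with a horizontal line for the mean and a vertical line for the SD of 3 libraries, stopped at 0. Kcnq1ot1 lies between 1259 and 3418 CPM and Meg3 between 477 and 697 CPM, Rian is the RNA whose groups do not overlap, and H19 is at 0.

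Genes whose levels followed Kcnq1ot1 over the 6 libraries were Mrgpra6, a receptor gene of the Mrgpr family, with r = 0.997, Fut8, a fucosyltransferase, with r = 0.996, and Grk4, a G protein-coupled receptor kinase, with r = 0.995. These are Pearson correlations of log2 CPM over 6 libraries that share a preparation protocol, given as a description, and 29 of 1696 genes (1.71%) had r over 0.9. Mrgpra6 averaged 7738 ± 4330 CPM over the WT libraries and 6988 ± 2977 over the KO libraries (SD, n = 3 per genotype). For Meg3 the most similar genes were Orc2 (r = 0.933), Srebf2 (r = 0.932) and Vasn (r = 0.923), and 8 genes (0.472%) had r over 0.9. Kcnq1ot1 with Meg3 gave r = 0.47, where the median r over the 1696 genes was -0.11 for Kcnq1ot1 and -0.14 for Meg3.

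**Figure D3:**
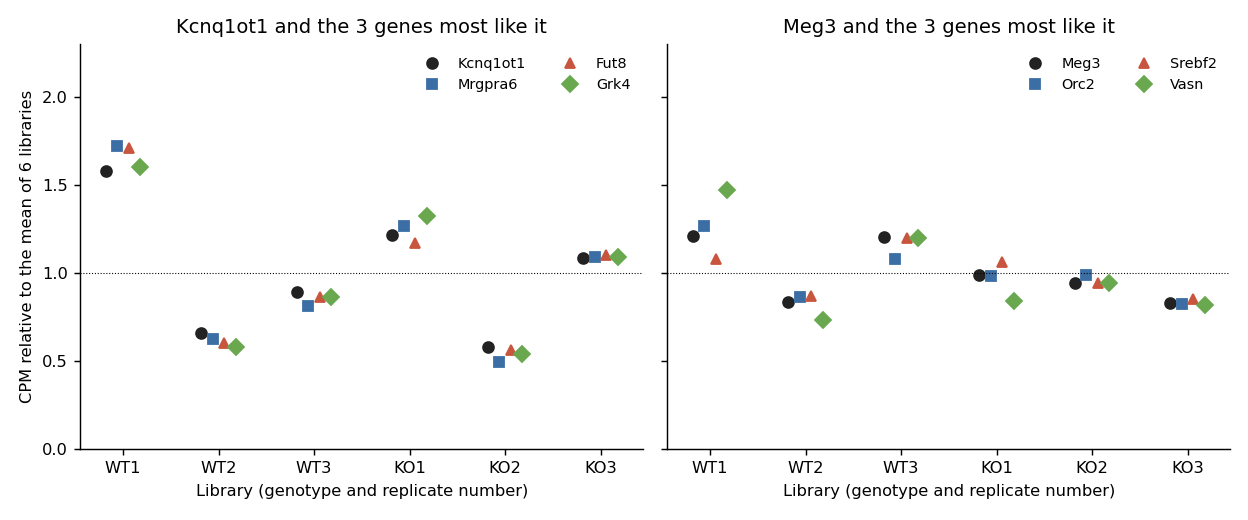
CPM of Kcnq1ot1, Meg3 and the genes most like them in the 6 libraries, each divided by its own mean over those libraries. Kcnq1ot1 and the genes most like it are high in replicate 1 and low in replicate 2 of both genotypes, while Meg3 has the order 1, 3, 2 in WT and 1, 2, 3 in KO.

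Meg3, the first RNA of the maternal Dlk1-Dio3 transcripts, had 20.8% of the summed counts and rank 308. Its WT counts were 465, 318 and 494, and its KO counts 448, 365 and 301. These gave 697, 481 and 696 CPM for WT against 569, 544 and 477 CPM for KO. The genotypes overlapped, with 2 WT libraries above all KO libraries and the lowest WT library between KO values. WT averaged 625 ± 124 CPM and KO 529.8 ± 47.8 CPM (SD, n = 3 per genotype). The log2 fold change was -0.24 (SE 0.15, 95% confidence interval -0.55 to 0.081, adjusted p = 0.987, edgeR), so it was not called and its interval included 0. Without replicate 3 of both genotypes it was -0.088 (SE 0.20), and without WT replicate 2, the lowest WT library, it was -0.39 (SE 0.14). Neither was called.

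Rian and Mirg, the hosts of small nucleolar RNAs and microRNAs further along the domain, were far lower. Rian was counted 13, 11 and 11 times in the WT libraries against 11, 10 and 6 times in KO. Scaled to library size, this was 19.5, 16.6 and 15.5 CPM against 13.97, 14.9 and 9.50 CPM. Every WT library was above every KO library, and the groups of 10.7% of all tested genes likewise did not overlap. The averages were 17.2 ± 2.05 for WT and 12.8 ± 2.89 CPM for KO (SD, n = 3 per genotype), with a log2 fold change of -0.41 (SE 0.38, 95% confidence interval -1.21 to 0.39, adjusted p = 0.987, edgeR). The counts themselves overlapped, since WT replicates 2 and 3 and KO replicate 1 had 11 each. Without replicate 3 of both genotypes the log2 fold change was -0.33 (SE 0.45). The sole counts of Mirg were 3, all from KO replicate 3 (exact two-sided permutation p = 1). The rows of small RNAs lying in these hosts, 14 in Mirg, 7 in Rian and 2 in Meg3, all had 0 counts. These were mRNA libraries, so such a 0 does not show that a small RNA was absent.

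Per kilobase of exon, Meg3 was the highest of the 8 at 34.5 ± 6.87 CPM per kb in WT and 29.3 ± 2.64 in KO (SD, n = 3). Kcnq1ot1 followed at 24.2 ± 11.1 in WT and 22.3 ± 7.79 CPM per kb in KO over its 93092 bases, and the ranges of these neighbours overlapped, although Meg3 was the higher in 6 of 6 libraries. Peg13 was at 2.07 ± 0.414 in WT and 1.55 ± 0.721 CPM per kb in KO, above Rian at 0.943 ± 0.113 and 0.701 ± 0.158 with no overlap in either genotype. That order rested on 3 to 8 counts of Peg13 per library. Peg13 lies within Trappc9 on the same strand, and whether its counts hold reads of Trappc9 was not tested. Nespas (0.617 in WT and 0.562 in KO), Airn (0.279 and 0.650) and Mirg (0 and 0.217) rested on so few counts that their order was not resolved. Rtl1, the coding retrotransposon-derived gene of the Dlk1-Dio3 domain, was at 26.8 ± 4.41 and 27.4 ± 5.29 CPM per kb, a level between those of Kcnq1ot1 and Meg3 (named after its values were seen). Which strand the reads listed under Rtl1 came from was not tested, and the imprinted noncoding RNA Rtl1as had no row. Dlk1 and Dio3, coding genes of the same domain, had 0 counts in every library. Lengths are those of GENCODE exons, 3597 bases for Airn, and the exons that the authors counted may differ.

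The remaining RNAs were close to the limit of the depth. Peg13 counts were 7, 5 and 8 for WT against 5, 3 and 7 for KO, which gave 9.77 ± 1.95 CPM and 7.30 ± 3.41 CPM (SD, n = 3 per genotype, exact two-sided permutation p = 0.3). For Airn the WT libraries held 1, 1 and 0 counts against 2, 3 and 0 for KO (exact permutation p = 0.5). For Nespas they held 2, 0 and 2 counts against 3, 1 and 0 (exact permutation p = 1). Both genotypes were at or under 3 counts per library for Airn, Nespas and Mirg, so no fold is given. H19 had 0 counts in all 6 libraries, which allows up to 3 counts or 3.81 to 4.75 CPM per library. Its hosted microRNA row was also at 0, with the limit of mRNA libraries given above.

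The class opposite a coding gene was counted more than the other class, through Kcnq1ot1. The ratio of summed counts of Kcnq1ot1, Airn and Nespas to those of Meg3, Rian, Mirg, Peg13 and H19 was 4.71, 2.82 and 2.68 over the WT libraries, with 4.48, 2.25 and 4.68 over the KO libraries. It averaged 3.40 ± 1.13 for WT and 3.80 ± 1.35 for KO (SD, n = 3 per genotype), and the genotypes overlapped. Per kilobase of exon summed over each class, which counts the exons of the hardly counted RNAs too, it averaged 1.73 ± 0.577 for WT and 1.93 ± 0.687 for KO. Between the most counted RNA of each class the order was the other way, since Meg3 exceeded Kcnq1ot1 per kilobase in 6 of 6 libraries. Kcnq1ot1 supplied 99.5% to 100% of the counts of its class and Meg3 94.95% to 96.6% of the other. Without these 2 RNAs the class opposite a coding gene held 3, 1 and 2 counts for WT with 5, 4 and 0 for KO, against 20, 16 and 19 for WT with 16, 13 and 16 for KO among the others, so the order of the classes was turned. The classes are described without a test, since the comparison rests on 1 RNA in each.

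Each pair of overlapping genes had its own balance. Kcnq1, the potassium channel gene opposite Kcnq1ot1, was counted 3, 4 and 7 times in the WT libraries against 7, 5 and 14 in KO, and Kcnq1ot1 exceeded it 106 to 760 times in counts and 4.65 to 33.4 times per kilobase. The other 2 members of the class lay below their coding partners. Igf2r, the receptor that takes up insulin-like growth factor 2, had 40 counts to 7 of Airn. In GENCODE, Airn has 3597 exon bases over a span of 118826, while Kcnq1ot1 is exon over its whole 93092 bases. The part of this difference in the counts was not tested. Gnas, which encodes the stimulatory G protein alpha subunit, had 640 to 8 of Nespas. Trappc9, a trafficking complex gene that hosts Peg13 on the same strand, was counted 357, 362 and 440 times in the WT libraries against 437, 348 and 412 in KO, with a log2 fold change of 0.019 (SE 0.13, edgeR) that was -0.040 with library sizes of all aligned reads.

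The coding genes of the same domains did not pass the test. Of 39 genes listed, 38 had a row and 10 of these were at 0, and 9 were tested, 6 with a positive and 3 with a negative log2 fold change and a median of 0.029, beside 0.0017 over all tested genes. None was called, as for all 5320 tested genes (0% called, edgeR adjusted p under 0.05), and 246 of all (4.62%) were under an unadjusted p of 0.05. DESeq2 and limma-voom also called 0 genes, with 96 and 234 under that unadjusted threshold. Cd81, a tetraspanin gene of the Kcnq1 domain, was at 72.4 ± 10.3 CPM for WT and 101 ± 22.1 CPM for KO (SD, n = 3 per genotype). Its log2 fold change was 0.47 (SE 0.22, adjusted p = 0.987, edgeR), and it was the 1 listed gene under that unadjusted threshold. It missed that threshold without WT replicate 1, WT replicate 2 or KO replicate 3, and was 0.28 (SE 0.23) without the last. Ctsz, a lysosomal protease gene beside Gnas, was at -0.21 (SE 0.19) and Gnas at -0.045 (SE 0.17) on that scale. Of the 3 RNAs tested, all 3 had a negative log2 fold change, with a median of -0.24, beside 49.8% of all tested genes, and none was called.

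**Figure D4:**
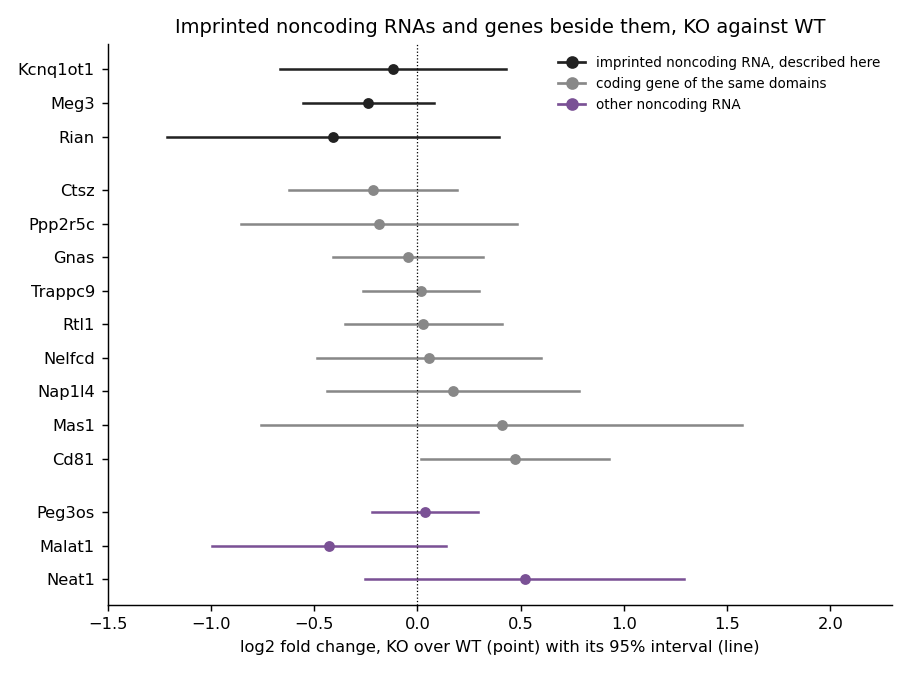
Log2 fold change of KO over WT with its 95% confidence interval, from the edgeR fit over 5320 genes, for the 3 tested imprinted noncoding RNAs, 9 coding genes of their domains and Peg3os, Malat1 and Neat1. All intervals cross 0 except that of Cd81, which depended on single libraries, and no gene was called after adjustment.

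Other imprinted and noncoding genes were not called either. Of 43 imprinted coding genes elsewhere, 15 were tested, 8 with a positive and 7 with a negative log2 fold change, with a median of 0.036. Herc3, the 1 gene of this list under an unadjusted threshold of 0.05, was at -0.72 (SE 0.31), and missed that threshold on leaving out replicate 1 or 3 of WT, or replicate 2 or 3 of KO. Copg2, a coat protein gene, was at -0.22 (SE 0.17). Of 16 other imprinted noncoding RNAs, 10 had a row and only Peg3os was tested, at 0.036 (SE 0.12). Of 21 long noncoding RNAs not known as imprinted, 10 were tested, 5 positive and 5 negative with a median of 0.0048, among them the nuclear RNAs Malat1 at -0.43 (SE 0.27) and Neat1 at 0.52 (SE 0.37). Malat1 was at -0.11 without KO replicate 2 and -0.76 without KO replicate 3, and Neat1 at 0.24 without KO replicate 1, 0.31 without WT replicate 2 and 0.90 without WT replicate 1. Of 21 factors that maintain or read imprints, 11 were tested, 5 positive and 6 negative with a median of -0.15. Cbx3, a heterochromatin protein gene, was at -0.80 (SE 0.30) and Atrx, a chromatin remodeller gene, at -0.41 (SE 0.21). Cbx3 was the 1 gene of this list under an unadjusted threshold of 0.05, and missed it on leaving out replicate 1 of WT or replicate 1 of KO. No listed gene was called by edgeR.

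In the authors' deposited table of DESeq results, the fold change of KO over WT was 0.941 for Kcnq1ot1 (p = 0.886), 0.867 for Meg3 (p = 0.283), 0.760 for Rian (p = 0.439) and 0.764 for Peg13 (p = 0.544). In the authors' deposited table of edgeR results, the log2 ratio of WT over KO was 0.095 for Kcnq1ot1 (p = 0.760), 0.22 for Meg3 (p = 0.258) and 0.39 for Rian (p = 0.385). Both tables put all 3 lower in KO with a p above 0.05.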

How the data were processed

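Per the labels' protocols, total RNA went into TruSeq mRNA libraries read as single reads on an Illumina HiSeq. The tools named in the submitters' processing notes are HTSeq 0.9.1, TopHat, edgeR and DESeq, on GRCm38 (mm10). The sources used here give neither strand setting nor annotation of the counting. The authors deposited whole-number counts per gene symbol and library, with 5 HTSeq rows that name no gene and were left out. The authors also deposited tables with a normalised mean signal, a fold ratio, a log2 ratio and a p-value, used as description.

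KO was tested against WT with edgeR 4.0.16 in R 4.3.3 (quasi-likelihood test, TMM factors of 0.958 to 1.03, filterByExpr at 10 counts, and an adjusted p under 0.05 by Benjamini-Hochberg). CPM uses TMM-scaled gene counts as library sizes. RNAs under the filter were compared by an exact two-sided permutation test of CPM (SciPy 1.17.1), and 3 counts were taken as the limit of a count of 0, covering counting error only. Classes, exon lengths and overlaps come from GENCODE M21, which matched 23376 of 24421 symbols (95.7%). On simulated counts for KO against WT in 5320 genes with 200 changed, 63% of 2-fold and 89% of 4-fold changes were recovered. The simulation gave every gene the median dispersion and no replicate structure. These shares therefore do not apply to a gene as variable as Kcnq1ot1. The alternatives are named below. The RNAs and gene lists were chosen with earlier results of these data known. Named genes are the 8 RNAs, their coding partners, the 2 genes of lowest p per list where none passed, and the 3 genes most similar to Kcnq1ot1 and to Meg3. Rtl1, Peg3, Ube3a, Snhg14, Tsix and Xist were added after their values were seen.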

Additional observations from a re-analysis of the deposited data

How the results depend on the processing

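The alternatives were RLE size factors, library sizes of all aligned reads, no filter, DESeq2, limma-voom, a replicate block, replicates 1 and 2 only, and leaving out each library. The count of called genes was 0 except 6 with no filter and 1 with replicates 1 and 2 only, and 0 to 1 on leaving out each library (1 without WT replicate 3). Meg3 kept its direction in 13 of 13 alternatives (-0.39 to -0.088) and Rian in 13 of 13 (-0.53 to -0.26). On leaving out each library, the log2 fold change ranged from -0.36 to 0.30 for Kcnq1ot1. With the replicate block it was -0.092 (SE 0.11) for Kcnq1ot1, -0.22 (SE 0.13) for Meg3 and -0.43 for Rian, and 0 genes were called, so the block changed no call. For Kcnq1ot1 the SE without the block was 0.26. The labels do not say that replicate numbers pair animals, so the main fit did not take them as pairs. Same-numbered libraries had deviation correlations of 0.143, 0.0795 and 0.122. As a hint from the data, each library correlated best with its own number in the other genotype in 6 of 6 cases. Without Kcnq1ot1 and Meg3 the log2 ratio of the 2 classes on counts summed over libraries was -2.74 (1.85 with them, an alternative chosen after seeing the data) and its KO minus WT difference 0.87 (0.14 with them). As means of the ratios per library, these were 1.78 and 0.13 with all 8 RNAs. On leaving out each library the last difference was -0.052 to 0.48.

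The direction of several small log2 fold changes was not stable. With library sizes of all aligned reads, Trappc9 was at -0.040, Rtl1 at -0.031 and Peg3os at -0.023, and with replicates 1 and 2 only Trappc9 was at -0.018 and Srebf2 at 0.043. On leaving out each library, the ranges were -0.084 to 0.081 for Trappc9, -0.18 to 0.078 for Gnas, -0.14 to 0.17 for Rtl1, -0.15 to 0.23 for Ube3a, -0.018 to 0.090 for Peg3os, -0.41 to 0.40 for Mrgpra6, -0.44 to 0.35 for Fut8 and -0.32 to 0.44 for Grk4. They kept their direction for Cd81 (0.28 to 0.56), Herc3 (-0.89 to -0.61), Cbx3 (-0.95 to -0.59), Atrx (-0.48 to -0.34), Ctsz (-0.31 to -0.11) and Copg2 (-0.31 to -0.11). The CPM of Nespas in KO minus WT ranged from -1.19 to 0.71. The cause was not tested. The depth, with a median count of 24 to 31 per tested gene, limited Rian, Peg13, Airn, Nespas, Mirg and H19 most.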
